A study of Saccharomyces cerevisiae with 6 samples.

Results

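The DNA replication machinery of budding yeast was followed here as 44 genes, which encode the origin recognition complex, the loading factor Cdc6, the Mcm2-7 helicase and the factors that activate it, the 3 replicative polymerases with primase, replication protein A, the sliding clamp and its loader, and the enzymes that finish Okazaki fragments. The genes were chosen by name from their known roles and not by a rule on their values, though with earlier results of these data known. All 44 were found among the 7126 genes of the count table, and all 44 passed the filter on low counts, as did 6330 genes in total. The cells were wild-type haploid Saccharomyces cerevisiae of strain BY4741, a laboratory strain of mating type a that carries deletions of several nutrient marker genes. Overnight cultures in synthetic complete (SC) medium were given glucose or glycerol as carbon source, and each carbon source had 3 poly(A)-enriched libraries, sequenced without strand information. The study behind these libraries was about how mitochondrial ribosomes differ between cells that ferment glucose and cells that respire on glycerol. The 6 libraries held between 15289163 and 20038052 counted fragments.

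In background, replication of a chromosome begins when the origin recognition complex and Cdc6, with Cdt1, load the Mcm2-7 ring onto origin DNA in G1. In S phase kinases act on Sld2 and Sld3 so that Cdc45 and the GINS complex join the ring, which then unwinds DNA while polymerase epsilon copies the leading strand and polymerases alpha and delta the lagging strand. Many of these genes are transcribed in pulses. The transcription factor MBF, made of Mbp1 and Swi6, binds a promoter element called the MluI cell cycle box (MCB) and drives a late G1 wave of replication genes, whereas CDC6 and the MCM genes belong to an earlier wave at the M to G1 transition.

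Transcripts of the replication machinery were mostly lower in glycerol than in glucose. Of the 44 genes, 36 fell, 4 rose and 4 did not pass the test (edgeR's quasi-likelihood test, adjusted p under 0.05 after the Benjamini-Hochberg correction across 6330 genes). The difference between these media was broad, since 40.1% of all tested genes were called lower, 41.7% higher and 81.8% in either direction. The 36 lower genes were therefore 81.8% of the 44, against 40.1% of all tested genes. The median log2 fold change, glycerol over glucose, was -0.75 over the 44 genes and 0.03 over all tested genes, and 19 of the 44 were below -1. The libraries of the groups did not overlap for 36 genes that were lower and 4 that were higher, while among all tested genes 40.8% were lower, 43% higher and 83.8% in either direction without overlap. A lack of overlap was thus common among all tested genes, and it is given below for single genes only as a description. A fit with the replicate number as a block also called 36 lower and 4 higher, with 40.6% of all tested genes lower, 42% higher and 82.6% in either direction. The largest fall was that of RFC5, at 5.30-fold, and the largest rise that of CDC6, at 4.44-fold.

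These directions are relative to the other transcripts, and ribosomal protein genes took a very different share of them in the media. The 132 genes of cytosolic ribosomal proteins held 24.1% to 27.5% of the counts in glucose and 5.45% to 6.47% in glycerol. The composition factors of edgeR (TMM) were 0.829 to 0.865 in glucose and 1.18 to 1.20 in glycerol, and without them, on library totals alone, log2 fold changes were shifted upward, by 0.50 for the median of all tested genes. On that scale 21 of the 44 genes were lower and 8 higher, where 26.1% of all tested genes were lower, 57% higher and 83% in either direction, and the median of the 44 was -0.25 against 0.52 for all tested genes. The median difference between the replication genes and all tested genes was thus -0.78 on the main scale. The 44 genes together held 0.225% to 0.242% of the counts in glucose and 0.186% to 0.205% in glycerol, so their combined share also fell on library totals. In these bulk cultures, fewer cells in late G1 and S phase and less RNA per cell cannot be told apart.

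**Figure D1:**
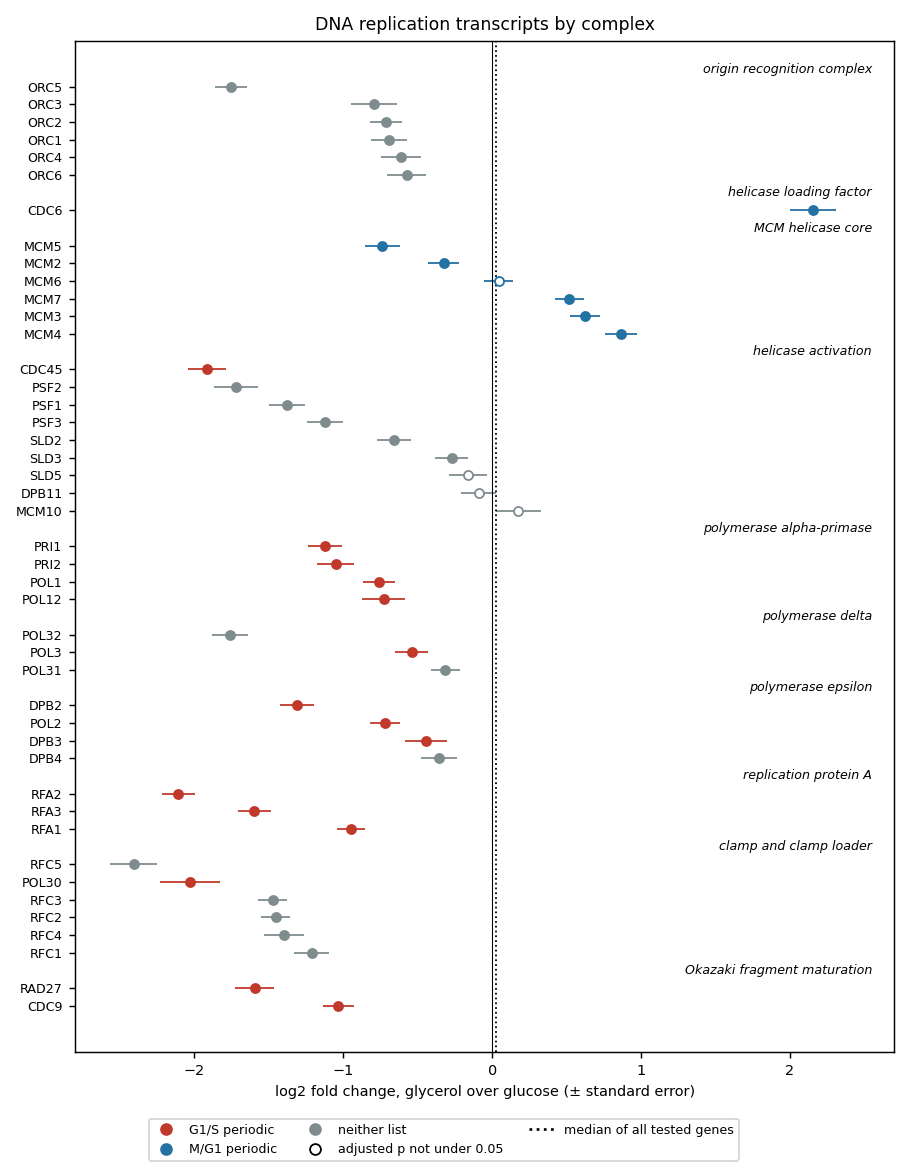
Log2 fold change, glycerol over glucose, of each of the 44 genes on the horizontal axis, by complex, with bars of 1 standard error from edgeR, colours for the periodic lists and open circles for genes that did not pass the test. Most genes lie to the left of 0, between RFC5 at -2.41 and CDC6 at 2.15, and the dotted line marks the median of all tested genes, 0.03.

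The promoters of these genes were read from the R64 genome, the build of the count table, as the 300 bases before each start codon. The MCB was searched as ACGCGT, which reads alike on both strands, and it was found in 18 of the 44 promoters (40.9%), against 219 of 6663 protein-coding promoters of the same length (3.29%). It was present at least 2 times in 6 of the 44 and in 23 of the 6663 (0.345%). The stretches below run 15 bases beyond the outermost motifs, 5′ to 3′ on the gene's strand, with the MCB in capitals. RFA2, RAD27 and CDC45 are shown as paired boxes before genes with large falls, POL1 and RFA1 as paired boxes before genes with smaller falls, POL30 as a single box before a gene with a large fall, and CDC6 as the only box before a gene that rose.
RFA2: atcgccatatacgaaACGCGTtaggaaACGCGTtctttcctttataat
CDC45: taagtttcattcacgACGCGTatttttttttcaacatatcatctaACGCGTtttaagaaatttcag
RAD27: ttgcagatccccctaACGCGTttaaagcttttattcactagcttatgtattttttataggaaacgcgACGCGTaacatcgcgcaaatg
POL1: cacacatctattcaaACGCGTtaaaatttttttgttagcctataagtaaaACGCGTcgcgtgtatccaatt
RFA1: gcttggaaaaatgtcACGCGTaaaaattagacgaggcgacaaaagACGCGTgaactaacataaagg
POL30: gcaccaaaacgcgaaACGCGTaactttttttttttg
CDC6: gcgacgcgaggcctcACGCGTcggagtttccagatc

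The RFA2 stretch is chrXIV:48152-48199 on the plus strand, that of CDC45 chrXII:346071-346136 on the minus strand and that of RAD27 chrXI:225983-226070 on the minus strand. The POL1 stretch is chrXIV:429864-429934 (plus), that of RFA1 chrI:158734-158799 (minus), that of POL30 chrII:425941-425976 (minus) and that of CDC6 chrX:69119-69154 (plus). All 7 lie upstream of the coding sequence. In RFA2 the first bases of the boxes lay at -120 and -108 from the start codon, and in CDC6 the single box lay at -204. Over the 18 genes, the boxes nearest to and farthest from the start codon were those of PSF3, at -85, and POL12, at -222. These matches are a description of the letters and not of binding.

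**Figure D2:**
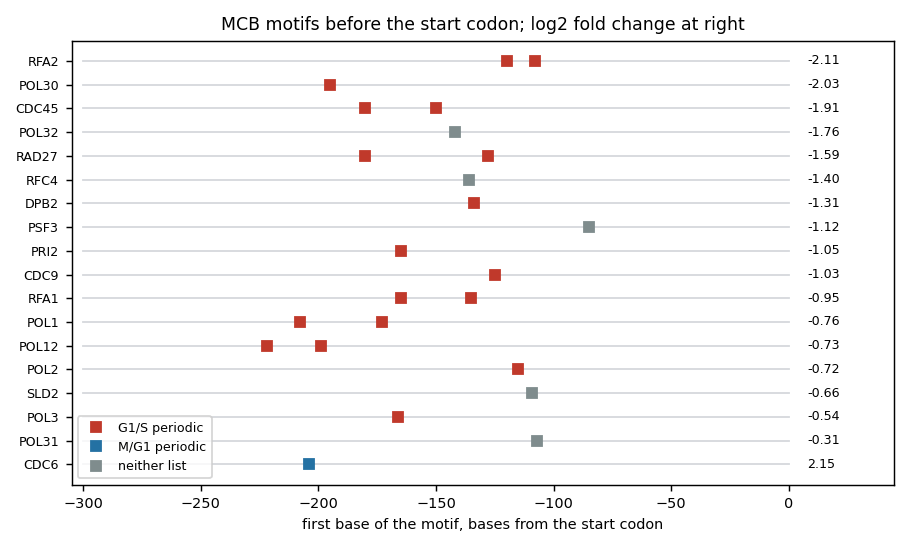
Positions of the MCB (first base, in bases from the start codon, horizontal axis) in the 18 of 44 promoters that hold it, ordered by log2 fold change, which is printed at the right, and coloured by periodic list. All 6 promoters with a pair of boxes belong to the G1/S periodic list, and CDC6 is the only gene of the 18 that was higher in glycerol.

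The origin recognition complex, the 6-subunit platform that marks origins, was lower in glycerol in all 6 of its transcripts, although on library totals only ORC5 kept its call and the other log2 fold changes lay between -0.29 and -0.08. ORC5, one of its ATP-binding subunits (YNL261W, chrXIV:155100-156539), had 65.3, 58.3 and 56.3 normalized CPM (counts scaled to the size of the library) in the glucose libraries and 17.6, 17.5 and 18.3 in the glycerol libraries. The lowest glucose library was thus far above the highest glycerol library, and the fall was 3.37-fold (log2 fold change -1.75, SE 0.11, adjusted p = 6.6e-10 by edgeR's quasi-likelihood test). ORC1, the largest subunit and the main ATPase, had 55.7, 53.5 and 44.5 normalized CPM in glucose and 34.9, 32.7 and 27.8 in glycerol. Its groups did not overlap either, with a log2 fold change of -0.69 (SE 0.12, adjusted p = 8.4e-05, edgeR's quasi-likelihood test). The other subunits moved by similar amounts, with log2 fold changes of -0.71 for ORC2, -0.79 for ORC3, -0.61 for ORC4 and -0.57 for ORC6.

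ORC5 stood apart from its complex in glucose rather than in glycerol. Per kilobase of gene, the 6 ORC transcripts ranged in glucose from 18.7 ± 2.17 normalized CPM per kb (SD, n = 3) for ORC1 to 41.6 ± 3.31 for ORC5. In glycerol they lay between 11.6 ± 1.33 for ORC1 and 14.9 ± 2.60 for ORC6, with ORC5 at 12.4 ± 0.303. The highest of these levels was 2.23 times the lowest in glucose and 1.29 times in glycerol. ORC5 lies 219 bases downstream of POL2 on the same strand of chromosome XIV.

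CDC6 encodes the ATPase that joins the origin recognition complex to load the helicase, and its transcript rose more than any other of the 44. It had 7.80, 5.64 and 6.88 normalized CPM in glucose and 27.3, 28.1 and 34.7 in glycerol, so that every glycerol library was well above every glucose library. The rise was 4.44-fold (log2 fold change 2.15, SE 0.16, adjusted p = 4.1e-09, edgeR's quasi-likelihood test), and leaving out any 1 library gave log2 fold changes from 2.03 to 2.27. CDC6 was the scarcest of the 44 in glucose, at 4.39 ± 0.703 normalized CPM per kb, and its counts per library ranged from 81 to 824. An open reading frame on the opposite strand, YJL195C, covers 39.2% of CDC6 and drew between 1 and 9 counts in a library. Without strand information, reads of CDC6 and of that strand cannot be told apart.

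The 6 transcripts of the MCM ring, which is assembled with 1 copy of each subunit, moved in opposite directions. Of them 3 were higher (50%), 2 were lower (33.3%) and 1 did not pass the test. This split was not far from that of all tested genes, 41.7% higher and 40.1% lower. On library totals none of the 6 was called lower, against 26.1% of all tested genes. MCM4 had 56.9, 65.0 and 72.7 normalized CPM in glucose and 121.5, 117.1 and 116.0 in glycerol, a log2 fold change of 0.87 (SE 0.11, adjusted p = 2.1e-06, edgeR's quasi-likelihood test). MCM3 had 110.5, 105.9 and 111.6 in glucose and 184.1, 153.5 and 167.5 in glycerol, and MCM7 71.6, 80.2 and 74.7 in glucose and 109.3, 101.4 and 113.6 in glycerol. These 3 transcripts were higher in every glycerol library than in any glucose library, and the log2 fold changes of MCM3 and MCM7 were 0.62 and 0.52 (adjusted p = 4.2e-05 and 1.8e-04, edgeR's quasi-likelihood test). MCM5 went the other way, from 128.0, 120.2 and 105.5 normalized CPM in glucose to 78.6, 73.2 and 60.4 in glycerol (log2 fold change -0.74, SE 0.12). MCM2 had 61.8, 64.7 and 61.9 normalized CPM in glucose and 56.6, 47.8 and 46.0 in glycerol, a small difference without overlap (log2 fold change -0.33, SE 0.11, adjusted p = 0.0102 by edgeR's quasi-likelihood test). MCM6 had 63.98, 67.2 and 62.2 normalized CPM in glucose and 71.2, 63.0 and 64.9 in glycerol, and its overlapping groups did not pass the test (log2 fold change 0.04, SE 0.10).

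Some of these MCM directions depended on the scaling. A change of scaling moves all 6 log2 fold changes by nearly the same amount, so their order could not test it. On library totals MCM3, MCM4, MCM6 and MCM7 were called higher, MCM5 had a log2 fold change of -0.24 without a call and MCM2 turned to 0.17, also without a call. The MCM2 call was also lost without glycerol replicate 2 (log2 fold change -0.26) and without glycerol replicate 3 (-0.24). Between MCM4 and MCM5, the span of log2 fold changes was 1.60. Per kilobase, MCM5 was the most abundant of the ring in glucose, at 50.6 ± 4.90 normalized CPM per kb, against 37.5 ± 1.04 for MCM3. In glycerol MCM3 led with 57.7 ± 5.25 and MCM5 was at 30.4 ± 4.01. The ratio of the highest to the lowest subunit was 2.40 in glucose and 3.00 in glycerol.

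**Figure D3:**
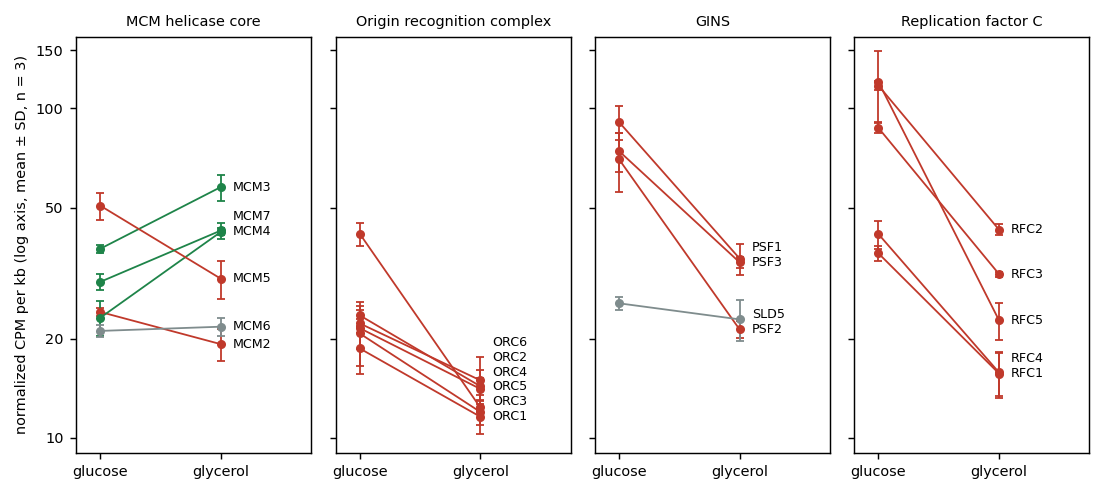
Normalized CPM per kb (log axis, mean ± SD, n = 3) in glucose and glycerol for the subunits of the MCM ring, the origin recognition complex, GINS and replication factor C, in green where higher in glycerol, red where lower and grey where the test was not passed. The MCM lines cross, whereas ORC5 falls from 41.6 to 12.4 into the range of its partners and SLD5 stays nearly level while the 3 PSF lines fall, that of PSF2 to just below SLD5.

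Among the 9 factors that turn the loaded ring into an active helicase, 6 fell, none rose and 3 did not pass the test. CDC45, the helicase cofactor, had 52.5, 43.0 and 41.0 normalized CPM in glucose and 13.0, 11.7 and 11.6 in glycerol. That was a 3.77-fold fall with well separated groups (log2 fold change -1.91, SE 0.13, adjusted p = 1.6e-09, edgeR's quasi-likelihood test). Of the 4 subunits of GINS, which holds the helicase and polymerase epsilon together, PSF1, PSF2 and PSF3 fell with log2 fold changes of -1.38, -1.72 and -1.12, but SLD5 did not pass the test, at -0.16 (SE 0.13). Per kilobase in glucose, SLD5 had 25.6 ± 1.14 normalized CPM per kb, against 70.0 ± 14.5 for PSF2, 74.2 ± 9.97 for PSF3 and 90.9 ± 10.6 for PSF1. In glycerol the 4 were closer, from 21.3 ± 1.28 for PSF2 to 35.0 ± 3.77 for PSF1, with SLD5 at 22.9 ± 3.24.

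Of the factors that bring these parts to origins, SLD2 and SLD3 fell and DPB11 and MCM10 did not pass the test, and on library totals neither fall was called. SLD3, which recruits Cdc45, had 31.6, 28.7 and 30.3 normalized CPM in glucose and 26.6, 23.3 and 25.1 in glycerol. Its small fall (log2 fold change -0.27, SE 0.11, adjusted p = 0.0345, edgeR's quasi-likelihood test) lost its call without glucose replicate 1 or 3 or without glycerol replicate 2 or 3 (log2 fold changes -0.19 to -0.27), and on library totals its log2 fold change was 0.23. SLD2, the partner of Dpb11, fell at -0.66 (SE 0.11), though on library totals it lost its call at -0.17. DPB11, the scaffold that Sld2 and Sld3 bind once phosphorylated, was at -0.09 (SE 0.12), and MCM10, needed for DNA unwinding after assembly, was at 0.18 (SE 0.15), and neither passed the test. On library totals SLD5, DPB11 and MCM10 were called higher, with log2 fold changes of 0.34, 0.40 and 0.67.

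All 11 polymerase and primase transcripts fell, with log2 fold changes between -1.76 and -0.31, although on library totals 5 of them kept a call and POL31, DPB3 and DPB4 turned above 0. POL1, the catalytic subunit of polymerase alpha, had 46.0, 42.3 and 46.0 normalized CPM in glucose and 25.5, 24.9 and 28.8 in glycerol (log2 fold change -0.76, SE 0.11, adjusted p = 8.8e-06, edgeR's quasi-likelihood test). Its partners POL12 and the primase subunits PRI1 and PRI2 had log2 fold changes of -0.73, -1.12 and -1.05. POL2, the catalytic subunit of polymerase epsilon, had 85.9, 84.5 and 96.4 in glucose and 51.9, 52.2 and 57.6 in glycerol, while POL3, that of polymerase delta, had 45.2, 49.0 and 44.9 in glucose and 33.2, 28.4 and 34.0 in glycerol. None of these 3 catalytic subunits had overlapping groups, and the log2 fold changes of POL2 and POL3 were -0.72 (SE 0.10) and -0.54 (SE 0.11). On library totals POL1 was at -0.27 and still called, and POL2 and POL3 were at -0.23 and -0.04 and were not.

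The accessory subunits spread more widely than the catalytic ones. POL32, the nonessential subunit of polymerase delta, fell 3.39-fold, from 38.2, 34.4 and 35.9 normalized CPM in glucose to 11.7, 10.2 and 10.1 in glycerol (log2 fold change -1.76, SE 0.12, adjusted p = 2.2e-09, edgeR's quasi-likelihood test). POL31, the subunit that links Pol32 to Pol3, had 50.2, 52.4 and 53.4 in glucose and 42.0, 43.0 and 40.5 in glycerol. Its groups were narrow and apart, with a log2 fold change of -0.31 (SE 0.10, adjusted p = 7.5e-03 by edgeR's quasi-likelihood test), which was 0.18 without a call on library totals. In polymerase epsilon, the essential subunit DPB2 fell at -1.31 (SE 0.11), and the small histone-fold subunits DPB3 and DPB4 were at -0.44 and -0.36. The call of DPB3 was lost without glucose replicate 1 (-0.28) or glycerol replicate 1 (-0.37) and that of DPB4 without glycerol replicate 2 (-0.24), and on library totals they were at 0.06 and 0.14. An open reading frame on the other strand, YBR277C, covers 53.3% of DPB3.

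By role, the lowest medians among the 44 genes were those of replication protein A (-1.60), the clamp with its loader (-1.46) and the 2 Okazaki fragment enzymes (-1.31). Single genes of other roles, CDC45, POL32, ORC5 and PSF2, fell more than all members of these roles but RFC5, RFA2 and POL30. All 11 transcripts of these roles were called lower on library totals too, against 26.1% of all tested genes. RFA2, the middle subunit of the single-stranded DNA binding protein, had 223.4, 206.8 and 184.2 normalized CPM in glucose and 50.8, 44.9 and 47.1 in glycerol. This was a 4.30-fold fall (log2 fold change -2.11, SE 0.11, adjusted p = 1.1e-10, edgeR's quasi-likelihood test), and its paired boxes are printed above. RFA1, the large subunit, had 107.2, 105.6 and 112.5 in glucose and 58.5, 54.2 and 55.8 in glycerol, and fell less (log2 fold change -0.95, SE 0.09). RFA3, the small subunit, fell at -1.60 (SE 0.11). Per kilobase RFA3 was the most abundant of the 44 transcripts in glucose, at 288 ± 38.4 normalized CPM per kb, and still the most abundant in glycerol, at 95.3 ± 1.14.

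POL30 encodes PCNA, the ring that holds the polymerases on DNA, and the 5 RFC genes encode the loader that opens it. POL30 had 35.1, 24.7 and 19.4 normalized CPM in glucose and 5.88, 5.71 and 7.70 in glycerol, a 4.08-fold fall in groups that did not overlap although the glucose libraries spread widely (log2 fold change -2.03, SE 0.20, adjusted p = 1.6e-07, edgeR's quasi-likelihood test). RFC5 had 160.7, 125.0 and 98.9 normalized CPM in glucose and 22.1, 27.7 and 22.8 in glycerol (log2 fold change -2.41, SE 0.16, adjusted p = 1.4e-09, edgeR's quasi-likelihood test). RFC1, the largest loader subunit, had 89.4, 98.8 and 93.4 in glucose and 47.9, 36.8 and 36.8 in glycerol (log2 fold change -1.21, SE 0.12). RFC2, RFC3 and RFC4 lay close together between these, at -1.45, -1.47 and -1.40.

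RFC5 and POL30 are neighbours, tail to tail on chromosome II with 160 bases between their coding sequences, at chrII:423765-424829 and chrII:424990-425766. They had the largest and the 3rd largest fall of the 44, and in both glucose replicate 1 was the highest and glucose replicate 3 the lowest library of its group. Glucose replicate 1 was the highest of its group for 22 of the 44 genes and glucose replicate 3 the lowest for 22. Without glucose replicate 1 the log2 fold changes were -2.21 for RFC5 and -1.77 for POL30, the smallest falls of any fit with 1 library left out. An open reading frame on the opposite strand, YBR089W, covers 75.2% of POL30 and drew at most 7 counts in a library. How fragments shared with such a reading frame were counted was not given in the sources used here, so the level of POL30 per kilobase is uncertain.

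RAD27, the flap endonuclease that trims Okazaki fragments, had 161.6, 126.6 and 110.6 normalized CPM in glucose and 46.3, 43.5 and 42.3 in glycerol (log2 fold change -1.59, SE 0.13, adjusted p = 1.7e-08, edgeR's quasi-likelihood test). CDC9, the ligase that seals them, fell at -1.03 (SE 0.10), from 53.5, 53.8 and 61.3 to 27.1, 27.2 and 28.1 normalized CPM. Neither gene had overlapping groups.

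**Figure D4:**
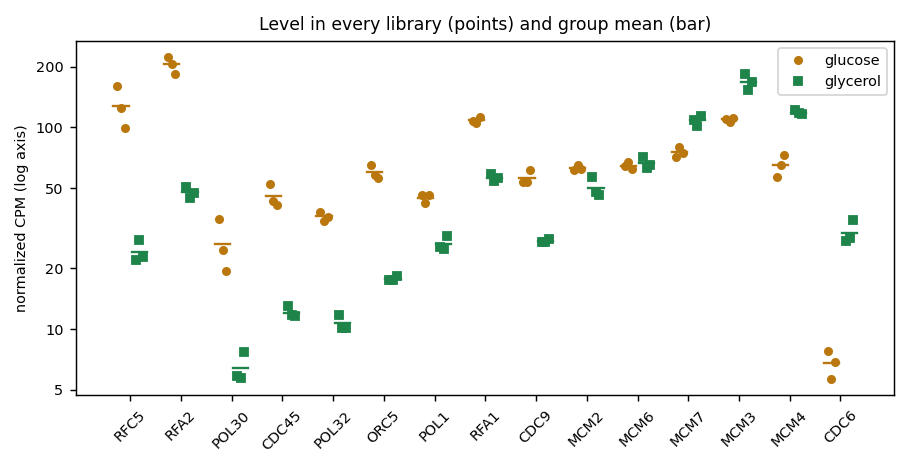
Normalized CPM (log axis) of 15 of the replication genes in every library, glucose as circles and glycerol as squares, with a bar at the mean of the 3 libraries of a group. The groups are apart for 14 of the 15, with RFC5 to MCM2 lower in glycerol and MCM7 to CDC6 higher, while those of MCM6 overlap. Groups were also apart for 83.8% of all tested genes. The lowest and the highest genes shown were taken from those past the test, so their separation is a description only.

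The genes known to be transcribed in a G1/S wave were compared with the rest. The G1/S periodic list held 15 of the 44 genes (CDC45, POL1, POL12, PRI1, PRI2, POL3, POL2, DPB2, DPB3, RFA1, RFA2, RFA3, POL30, RAD27 and CDC9). All 15 fell, with a median log2 fold change of -1.05 and a range from -2.11 to -0.44, and 9 were below -1. Of the other 29 genes 21 fell (72.4%), 4 rose (13.8%) and 4 did not pass the test. Of all tested genes 40.1% were called lower and 41.7% higher. The median of the other 29 was -0.66, so that the medians of the 15 and the 29 differed by -0.39. Leaving out 1 library at a time gave differences from -0.48 to -0.32. On library totals 11 of the 15 were lower and none higher, with DPB3 at 0.06, against 10 lower and 8 higher of the other 29. There 26.1% of all tested genes were lower and 57% higher. The medians of the 15 and the 29 on that scale were -0.55 and -0.17.

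The other 29 genes were themselves of distinct kinds. CDC6 and the 6 MCM genes, the M/G1 periodic list, held all 4 of the genes that rose, with 2 that fell, 1 that did not pass the test and a median of 0.52. This was 57.1% higher and 28.6% lower, against 41.7% and 40.1% of all tested genes. The 22 genes in neither list had 19 lower and none higher, a median of -0.75, and 10 below -1, among them RFC5, ORC5, POL32, PSF2 and the other RFC genes. The G1/S median was lower than theirs by a difference of -0.30. The summed level of the 15 G1/S genes was 1209, 1081 and 1024 normalized CPM in glucose and 473, 452 and 470 in glycerol. The lists overlapped in range, since RFC5 of the neither list had the largest fall and DPB3 of the G1/S list one of the smallest.

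The G1/S genes were also those with most of the boxes, which is not independent of the list, as MCB elements are part of how such genes are known. The motif was present in 12 of the 15, with PRI1, RFA3 and DPB3 lacking it, in 5 of the 22 genes of neither list and, of the M/G1 list, in CDC6 alone. The 18 genes with an MCB had a median log2 fold change of -1.04, with 17 lower and 1 higher, and the 26 without had -0.65. Within the G1/S list the split was not seen, with medians of -1.04 for the 12 genes with the motif and -1.12 for the 3 without, and in the list of other G1/S genes described below they were -0.86 and -0.83, over 8 genes each. Over all 44 by number of boxes the medians were -0.65 with 0, -1.04 with 1 and -1.27 with 2, over 26, 12 and 6 genes. The ranges overlapped, from -2.41 to 0.87 with 0, -2.03 to 2.15 with 1 and -2.11 to -0.73 with 2. All 6 genes with 2 boxes are in the G1/S list, so number of boxes and list cannot be told apart there. Among tested genes outside the 44 the 196 with an MCB had a median of -0.22, with 94 lower and 68 higher, against 0.04 for those without. For comparison, 40.1% of all tested genes were called lower and 41.7% higher. The related SCB motif, searched as CNCGAAA on both strands, was in 14 of the 44 promoters (31.8%), 5 of them of the M/G1 list, and in 14.0% of all promoters.

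Gene length moved with the fold changes and differed between the lists. Over the 44 genes the Spearman correlation of gene length with log2 fold change was 0.47, against 0.086 over all 6330 tested genes, as a description of genes that share the same libraries. When each gene was centred on the 501 tested genes of most similar length, an alternative added after the relation was seen, the medians were -1.01 for the 44, -1.24 for the G1/S list and -0.63 for the other 29. DPB3 and DPB4 then had 0.10 and 0.22. The part of length in the fold changes was not tested further.

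**Figure D5:**
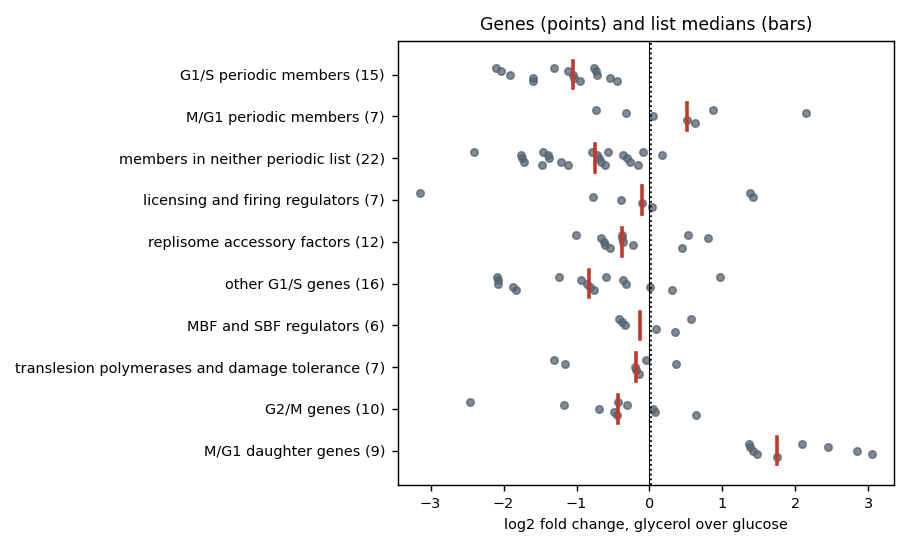
Log2 fold change, glycerol over glucose, of each gene (points, with list medians as bars) in the periodic lists of replication genes and in related lists, with the number of genes in parentheses and the median of all tested genes as a dotted line. The G1/S list lies wholly below 0 with a median of -1.05, the M/G1 list of replication genes straddles 0 and all 9 M/G1 daughter genes lie above 1.

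Genes that act beside the replication machinery moved less uniformly. Of all tested genes, 41.7% were called higher and 40.1% lower. Of 7 regulators of licensing and origin firing, 2 rose (28.6%) and 3 fell (42.9%), the latter near the share of all tested genes. TAH11, which encodes Cdt1, the partner of Cdc6 in loading, rose at 1.38 (SE 0.10), as did SIC1, the inhibitor of S-phase cyclin kinases, at 1.42 (SE 0.11). The S-phase cyclins CLB6 and CLB5 fell at -3.14 (SE 0.23) and -0.78 (SE 0.11), and the kinase CDC7 fell at -0.39, a direction that turned to 0.10 without a call on library totals. Of 12 accessory factors of the fork, 3 rose (25%) and 8 fell (66.7%). Those that rose were TOP1, the type I topoisomerase, at 0.80, the helicase RRM3 at 0.53 and DNA2 at 0.45. The lowest were the cohesion factor CTF8 at -1.005 and the fork protection factor TOF1 at -0.67. On library totals 4 of the 12 were higher and only 1, CTF8, was lower, against 57% and 26.1% of all tested genes. Of 7 genes of translesion synthesis and damage tolerance, 1 rose (REV3, 0.37) and 2 fell (REV7, -1.31, and RAD5, -1.15). These were 14.3% and 28.6% of the list, both below the shares of all tested genes.

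Other G1/S genes outside the machinery fell like its periodic part. Of 16 such genes, with a median of -0.83, 13 fell (81.25%) and 2 rose (12.5%), against 40.1% and 41.7% of all tested genes. On library totals 9 fell and 3 rose, against 26.1% and 57% of all tested genes. The lowest were the G1 cyclin CLN2 (-2.10, SE 0.10), the thymidylate synthase CDC21 (-2.08, SE 0.11) and the ribonucleotide reductase RNR1 (-2.07, SE 0.10). SWE1, a kinase that restrains mitosis, rose at 0.30, a call that was lost without glucose replicate 1 or 2 or glycerol replicate 1 (0.25 to 0.27). Of the 6 regulators of this wave, 2 rose (33.3%) and 3 fell (50%), not far from the shares of all tested genes. MBP1 did not pass the test at 0.09 (SE 0.11), its partner SWI6 fell at -0.34, the MBF corepressor NRM1 at -0.42 and the cofactor STB1 at -0.37, and SWI4 and the inhibitor WHI5 rose at 0.35 and 0.57. On library totals no regulator was called lower, with SWI6, NRM1 and STB1 at 0.15, 0.07 and 0.12, and 3 were called higher, MBP1 at 0.59, SWI4 at 0.84 and WHI5 at 1.06. The count of regulators called lower fell from 3 to 1 without glucose replicate 3, glycerol replicate 1 or glycerol replicate 3, and the call of SWI4 was lost without glucose replicate 2 (0.28).

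Markers of other cell cycle stages moved with the media as well. Of 10 G2/M genes 7 fell (70%) and 1 rose (10%), against 40.1% and 41.7% of all tested genes. The mitotic cyclins CLB1 and CLB2 were at -2.46 and -1.17. On library totals 2 of the 10 were lower and 3 higher, against 26.1% and 57% of all tested genes. All 9 M/G1 genes of daughter cells rose under both scalings, with a median of 1.74, led by the chitinase CTS1 (3.05) and the cell wall gene DSE1 (2.84), and SIC1 is in this list as well as among the regulators. Their summed level was 3471 to 4071 normalized CPM in glucose and 20353 to 21861 in glycerol. The stage of the cells was not among the measurements used here, and its part in the values of the replication genes was not tested. As a check of the strain, LEU2, URA3 and MET17 had 0 counts in all 6 libraries. The 5 a-specific genes summed to 2235 to 2708 normalized CPM in glucose and 239 to 243 in glycerol, and the 3 alpha-specific genes to 16.7 to 22.5 and 32.2 to 38.4.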

How the data were processed

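RNA of 3 glucose and 3 glycerol cultures, described as biological replicates, was sequenced by the authors as paired-end, poly(A)-enriched libraries without strand information. Per the labels, reads were processed with fastp 0.20.1, HISAT2 2.2.1 and featureCounts 2.0.1 on the R64 build. The authors deposited raw counts per gene, which were analysed here. The deposited FPKM values and the authors' own columns of group means, fold changes and p-values were not used. Per-kilobase levels are normalized CPM divided by the deposited gene length.

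The filter asked for 10 or more counts in 3 or more libraries (6330 of 7126, of which 283 were 0 throughout). These were tested with edgeR 4.0.16 (TMM factors, glmQLFit and glmQLFTest, R 4.3.3), glycerol against glucose, and p-values were adjusted by Benjamini-Hochberg across the 6330 (threshold 0.05). Normalized CPM are counts scaled to the library size after TMM. Errors are SDs over 3 libraries or the SE of the fit. Alternatives were library totals, RLE factors, DESeq2 1.42.0, limma-voom (limma 3.58.1), no filter, a replicate block and each library left out. Replicates differed by more than sampling noise (chi-square per degree of freedom 16.4 to 63.7). Counts per library of the 44 genes ranged from 81 to 4104.

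The labels number the replicates 1 to 3 in both media without saying what a number shares. Deviations from the group means correlated between same-numbered libraries at 0.25, 0.11 and 0.29 over 5667 genes with a mean count of at least 100, and at -0.30 to 0.06 between the others, which meets the criterion for pairing, every same-numbered pair over 0.1. Over all tested genes the values were 0.17, 0.06 and 0.20. The values printed come from the fit without the block, and the fit with it is given beside the counts of calls.

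The genes and lists were chosen with earlier results of these data known. All 44 genes are named. Values in every library are given for the 6 highest and 6 lowest past the threshold and a set of central subunits, and for MCM5, MCM6, RAD27 and CDC9, which were added after their values were seen. Of other lists at most the 3 highest and 3 lowest genes are named, and also MBP1 and SWI6, and some single genes of these lists are not reported here. Promoters were read from the R64 RefSeq genome, on which all 44 genes had the deposited start and end.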

Additional observations from a re-analysis of the deposited data

How the results depend on the processing

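Of 264 fits of the 44 genes under 6 alternatives, 245 kept direction and side of the threshold. All 19 changes came without a composition factor, on library totals, where the counts of genes rose from 4 to 8 higher and fell from 36 to 21 lower, those of the 29 genes outside the G1/S list were 8 and 10, and the medians were -0.25 for the 44, -0.55 for the G1/S list and -0.17 for the other 29. All tested genes called lower numbered 1652 there. Signs turned for MCM2 (0.17), SLD5 (0.34), SLD3 (0.23), DPB11 (0.40), POL31 (0.18), DPB3 (0.055), DPB4 (0.14), SWI6 (0.15), NRM1 (0.075), STB1 (0.12), RAD6 (0.45) and CDC7 (0.10). Of the 44 genes 15 that were lower lost that call, and SLD5, DPB11, MCM6 and MCM10 were now called higher. There 4 of 7 licensing regulators, 4 of 7 damage tolerance genes and 3 of 10 G2/M genes were higher, where 57% of all tested genes were higher. Lower were 1 of 12 accessory factors, 0 of 6 MBF and SBF regulators and 2 of 10 G2/M genes, against 26.1% of all tested genes. Centring on genes of like length, added after seeing the data, gave medians of -1.01 for the 44 and -1.24 for the G1/S list, and a difference of -0.62 from the other 29. The cause of these shifts was not tested.

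With the replicate block, 4 of the 44 genes were higher and 36 lower, and of all tested genes 2656 were higher and 2573 lower. No call among the 44 changed under the block.

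Leaving out 1 library kept 255 of 264 calls and lost 9, of MCM2, SLD3, DPB3 and DPB4. The 44 genes had 33 to 36 lower and 4 higher. Medians ranged from -0.85 to -0.71 for the 44, -1.14 to -1.02 for the G1/S list and -0.71 to -0.57 for the other 29, and the difference from -0.48 to -0.32. Other G1/S genes had 1 to 2 higher, and the MBF and SBF regulators 1 to 2 higher and 1 to 3 lower. With 3 libraries a medium and no other batch label, the spread covers these cultures only. Overlapping reading frames limit POL30, DPB3 and CDC6, and CDC6 and POL30 had the lowest counts in a single library.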
